A study of Mus musculus with 10 samples.

Results

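Hairpin 1 against Serpine2 (shSerpine2-1) was compared with the control hairpin (shRenilla) in cells of clone 4T1-T, by RNA sequencing. The comparison takes the libraries titled shSerpine2-1 A and B and those titled shRenilla A and B, which are 4 of the 10 libraries of the series. Clone 4T1-T is a population grown from a single cell of 4T1, a mouse mammary carcinoma line, and the study's title places it in work on breast cancer heterogeneity, vascular mimicry and metastasis. All cells were infected with a short hairpin RNA and kept in culture with serum, so that there is no uninfected group. The knockdown cells described here carried shSerpine2-1. The other knockdown cells carried shSerpine2-2, a further hairpin against Serpine2, or shSlpi-1 or shSlpi-2, against Slpi. The control cells carried shRenilla, named for the sea pansy whose luciferase gene mouse cells lack. Each group is 1 hairpin in 2 libraries, and nothing in the labels says that A and B came from separate cultures or infections. P-values therefore measure only the spread between these libraries, and the effects of lower Serpine2, of this hairpin and of the infected population cannot be told apart in this comparison alone.

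Serpine2 encodes protease nexin-1, a secreted serpin that traps thrombin, urokinase, tissue plasminogen activator and plasmin, with heparin-like glycans on the cell surface as cofactors and Lrp1 as a receptor that clears the complexes. Slpi encodes the secretory leukocyte protease inhibitor, a small secreted protein that inhibits neutrophil elastase and cathepsin G. Vascular mimicry is the lining of blood-conducting channels by tumour cells in place of endothelium.

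The libraries held 16518650 and 15877431 reads in shSerpine2-1 cells, against 17233255 and 16686493 in shRenilla cells, and 15877431 to 24026620 over the series. Values below are normalized read counts, and fold changes are log2 differences of normalized count + 1 with their standard errors. A gene is said to have risen, fallen or changed where its adjusted p (limma, two-sided, Benjamini-Hochberg over the 12299 genes tested) was under 0.05. Genes under the filter at a mean count of 10, 11180 in number, summed to 16720 and 16280.2 counts in shSerpine2-1 libraries, against 11583 and 12224 in shRenilla libraries, and more of them had a read (5542 and 5402 against 3591 and 3741). These genes were not tested, and whether this surplus of weak signal has a part in the results was not tested. Markers of the labelled mammary carcinoma cells summed to 108169 and 110264 counts in shSerpine2-1 libraries, against 116104 and 114894 in shRenilla libraries, most of it from Vim, with Cdh1 and Spp1 next. Only 4 of 16 endothelial, 2 of 17 leukocyte and 3 of 14 fibroblast markers in the table passed the filter. Their sums were 816 and 843, 282 and 279.8, and 723 and 734 in shSerpine2-1 libraries, against 814 and 804, 284 and 273, and 983 and 955 in shRenilla libraries. Most of the endothelial sum was Eng, with 688 and 701 counts in shSerpine2-1 libraries, against 723 and 693 in shRenilla libraries. Most of the leukocyte sum was Cd68, with 129 and 129 counts in shSerpine2-1 libraries, against 140.1 and 133 in shRenilla libraries, and Cd14, with 123 and 122 counts in shSerpine2-1 libraries, against 132 and 119 in shRenilla libraries. The endothelial markers Cldn5 and Sox17 and the leukocyte markers Lyz2 and Laptm5 were at 0 in both shSerpine2-1 libraries. Other weak members were not at 0, and endothelial ones tended to be higher than in shRenilla. With no filter on low values, the median log2 fold change was 0.55 over 16 endothelial and 0.05 over 17 leukocyte markers. It was 0.02 over all genes with a read, and 0 of these markers passed. Most of these markers were under the filter, where counts in general were higher in shSerpine2-1, as given above. The median over all genes also takes in the 12299 genes above the filter, so it is not a like comparison for weak markers. The fibroblast sum moved with Pdgfra, a growth factor receptor and the 1 marker of these lists of other cell types that changed; its part in the results was not tested.

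Serpine2, the target, fell in shSerpine2-1 cells. It had 128 and 139 counts in shSerpine2-1 libraries, against 3256 and 3145 in shRenilla libraries, 23.9-fold lower (log2 fold change -4.57 ± 0.07 (SE), adjusted p = 4.68e-17). In RNA of whole cultures, fewer cells with the transcript and less of it per cell cannot be told apart. The other lines lay between: 489 and 514 counts in shSerpine2-2, 1342 and 1331 in shSlpi-1 and 1553 and 1731 in shSlpi-2 libraries. No shSerpine2-1 library overlapped any other group. Hairpin 1 left 3.75-fold less Serpine2 RNA than hairpin 2 (log2 fold change -1.90 ± 0.07 (SE), adjusted p = 7.41e-11). The gene lies on the minus strand of chromosome 1 at 79794197 to 79861180 (GRCm38).

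Low Serpine2 and Slpi in this line were known when the comparison was chosen, so their tests are a description. Slpi, which hairpin 1 was not made against, fell as well. It had 326 and 414 counts in shSerpine2-1 libraries, against 1189 and 1313 in shRenilla libraries, 3.38-fold lower (log2 fold change -1.76 ± 0.12 (SE), adjusted p = 1.96e-07). The shSerpine2-2 libraries had 1111 and 1218 counts, overlapping the shRenilla libraries, and hairpin 1 cells were below hairpin 2 cells in the direct contrast (log2 fold change -1.66 ± 0.12 (SE), adjusted p = 4.13e-07). The libraries silenced for Slpi were lower than shSerpine2-1, with 145 and 147 counts in shSlpi-1 and 60.9 and 75.8 in shSlpi-2; shSerpine2-1 exceeded shSlpi-1 by 1.33 log2 units (adjusted p = 1.36e-05). Slpi lies on the minus strand of chromosome 2 at 164354070 to 164389095. Both calls against shRenilla held when any 1 of the 4 libraries was left out.

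**Figure D1:**
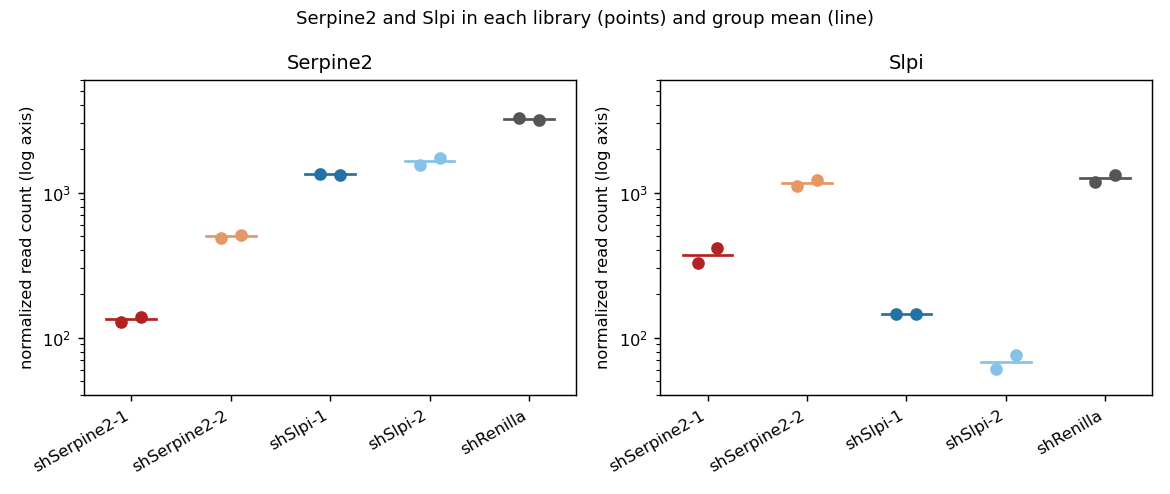
Normalized read counts (log axis) of Serpine2 and Slpi in each library (points) of the 5 groups, with group means (lines). Serpine2 is lowest in shSerpine2-1, and Slpi in shSerpine2-1 lies at 326 and 414 counts, between the shSlpi libraries and the shSerpine2-2 and shRenilla libraries.

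Against shRenilla, 1288 genes changed in shSerpine2-1 cells, 10.5% of those tested: 626 rose (5.09%) and 662 fell (5.38%). Most changes were small, with a median of 1.24-fold among changed genes. Only 17 genes rose and 58 fell by at least 1 log2 unit. The median over all tested genes was 0.00 log2 units. The libraries of the groups did not overlap in 3523 genes that were higher and 3580 that were lower in shSerpine2-1, so that lack of overlap alone was common. The number of calls rests on all 4 libraries. It was 392 without shSerpine2-1 A, 377 without shSerpine2-1 B, 598 without shRenilla A and 304 without shRenilla B.

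**Figure D2:**
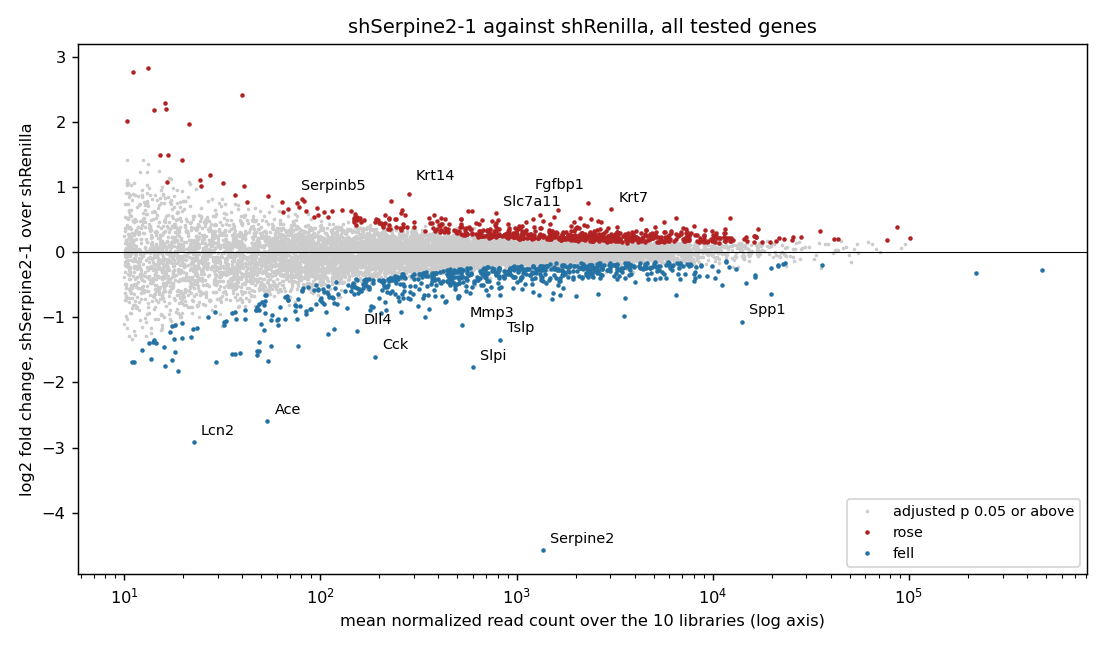
Log2 fold change of shSerpine2-1 over shRenilla against the mean normalized count over the 10 libraries (log axis) for the 12299 tested genes; coloured points passed an adjusted p of 0.05. Serpine2 stands apart at -4.57, while most coloured points lie within 1 log2 unit of 0.

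The largest falls among genes with a mean of at least 50, after Serpine2, were secreted factors, enzymes and receptors. Ace, the angiotensin-converting enzyme, had 29.0 and 17.4 counts in shSerpine2-1 libraries, against 134 and 149 in shRenilla libraries (log2 fold change -2.60 ± 0.31 (SE), adjusted p = 7.2e-05). Enpp2, which makes the lipid mediator lysophosphatidic acid, had 23.4 and 37.2 counts in shSerpine2-1 libraries, against 89.6 and 104 in shRenilla libraries (log2 fold change -1.67 ± 0.23 (SE), adjusted p = 0.000214). Both were weakly expressed in shSerpine2-1 cells. Lack of overlap with shRenilla was a condition for naming these falls, so it adds no support. Cck, a peptide hormone, had 91.3 and 89.4 counts in shSerpine2-1 libraries, against 253 and 302 in shRenilla libraries (log2 fold change -1.60 ± 0.16 (SE), adjusted p = 1.3e-05). The cytokine gene Tslp, whose product acts on dendritic cells, had 618 and 609.5 counts in shSerpine2-1 libraries, against 1532 and 1582 in shRenilla libraries (log2 fold change -1.34 ± 0.10 (SE), adjusted p = 4.27e-07). Dll4, a Notch ligand of sprouting vessels, had 85.8 and 104 counts in shSerpine2-1 libraries, against 247 and 196 in shRenilla libraries (log2 fold change -1.21 ± 0.15 (SE), adjusted p = 0.000102). Man1c1, a Golgi mannosidase, fell by 1.26 log2 units and Abcc3, an organic anion exporter, by 1.18. Ace, Enpp2, Tslp, Man1c1 and Abcc3 were also below shRenilla in every library of the other knockdown lines. In shSerpine2-2, Cck was above shRenilla and Dll4 overlapped with it. Mertk, a receptor kinase for apoptotic cells, fell by 1.19, and its call ended without shSerpine2-1 A and without shRenilla A (highest adjusted p 0.0726).

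At the same mean of at least 50, the largest rises were smaller than the largest falls, and 4 of the 12 named held without any 1 library. Krt14, a basal keratin, had 216 and 219 counts in shSerpine2-1 libraries, against 115 and 120.1 in shRenilla libraries (log2 fold change 0.89 ± 0.12 (SE), adjusted p = 0.000151). Krt7, a simple-epithelial keratin, had 2978 and 3072 counts in shSerpine2-1 libraries, against 1991 and 1831 in shRenilla libraries (log2 fold change 0.66 ± 0.06 (SE), adjusted p = 1.8e-06). Fgfbp1, which releases fibroblast growth factors from matrix, had 2398 and 2428 counts in shSerpine2-1 libraries, against 1425 and 1436 in shRenilla libraries (log2 fold change 0.75 ± 0.05 (SE), adjusted p = 2.21e-07). Lack of overlap was a condition of the choice here too. Group means of Krt14, Krt7 and Fgfbp1 were above shRenilla in the other lines as well. In shSerpine2-2, shSlpi-1, shSlpi-2 and shRenilla they were 255, 315, 507 and 117 for Krt14. They were 3114, 3228, 3901 and 1911 for Krt7 and 2127, 2825, 2831 and 1431 for Fgfbp1. Nim1, a further rise, went both ways, at 35.8, 66.0, 37.2 and 46.8. Serpinb5, the serpin maspin, had 273 and 232 counts in shSerpine2-1 libraries, against 162 and 131 in shRenilla libraries (log2 fold change 0.78 ± 0.12 (SE), adjusted p = 0.000666). The other 8 were Nim1 at 0.86, Frmd4b at 0.81, Mal at 0.79, Them6 at 0.77, Scn3a at 0.75, Foxf1 at 0.68, Snord16a at 0.66 and Cyb561d2 at 0.65 log2 units. Leaving out shSerpine2-1 A, shSerpine2-1 B, shRenilla A and shRenilla B in turn ended 7, 7, 6 and 7 of the 12 calls, with log2 fold changes between 0.50 and 0.96 for these 8 genes and adjusted p up to 0.298.

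**Figure D3:**
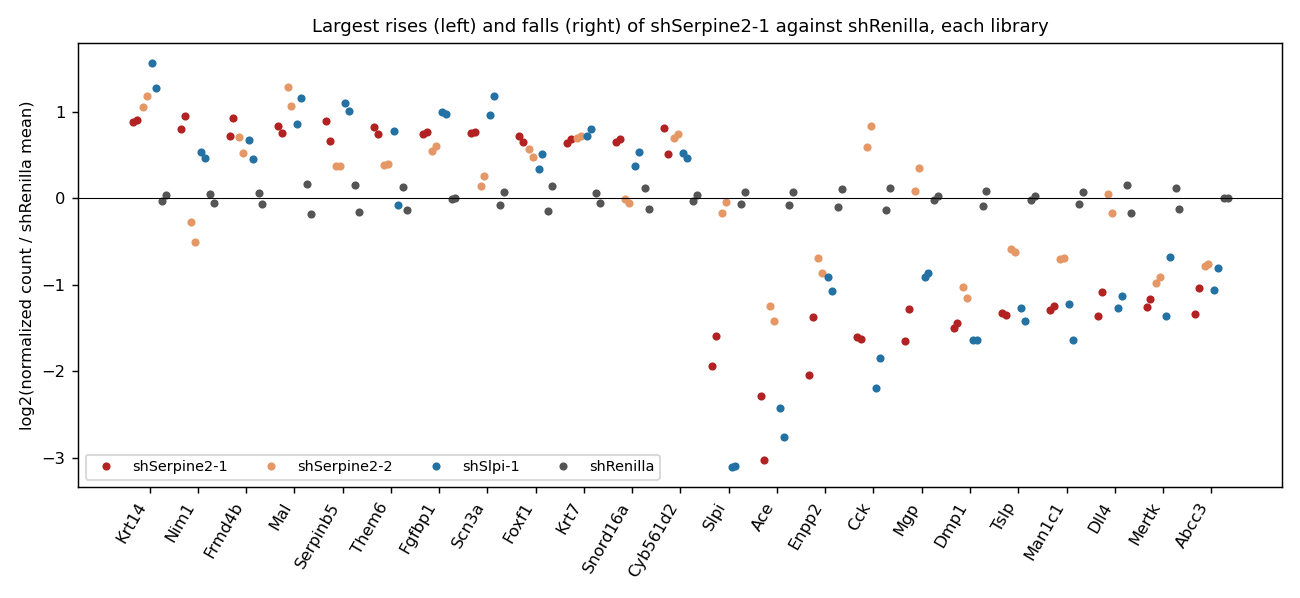
Log2 ratio of each library's normalized count to the shRenilla mean, for the 12 genes with the largest rises and 11 with the largest falls (Serpine2 left out) of shSerpine2-1 over shRenilla, in the shSerpine2-1, shSerpine2-2, shSlpi-1 and shRenilla libraries. The genes were chosen for the shSerpine2-1 difference; Cck and Mgp are low in shSerpine2-1 and shSlpi-1 and not in shSerpine2-2.

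Of 27 genes listed as targets and partners of Serpine2, 8 were under the filter and not tested. Among those tested, part of the plasminogen system was lower. Of 19 tested targets, cofactors and clearance receptors of Serpine2, 5 rose and 5 fell (median -0.01), with Plau, Sdc4 and Plaur among those that fell. Over all genes, 5.09% rose and 5.38% fell. Plau, urokinase, had 2574 and 2566 counts in shSerpine2-1 libraries, against 3146 and 3071 in shRenilla libraries (log2 fold change -0.27 ± 0.05 (SE), adjusted p = 0.00326). Sdc4, syndecan-4, a heparan sulfate proteoglycan, had 9255 and 9329 counts in shSerpine2-1 libraries, against 11024 and 11611 in shRenilla libraries (log2 fold change -0.28 ± 0.04 (SE), adjusted p = 0.000721). Plat, tissue plasminogen activator, fell by 0.71 log2 units, Plaur, the urokinase receptor, by 0.32 and Lrp1 by 0.19. Plat was also below shRenilla in every library of the other knockdown lines. Hspg2, the proteoglycan perlecan, rose by 0.29, Htra1, a serine protease, by 0.26 and Col4a1, a basement membrane collagen, by 0.17. F2r, the thrombin receptor, had 6655 and 6469 counts in shSerpine2-1 libraries, against 6946 and 7126 in shRenilla libraries (log2 fold change -0.10, adjusted p = 0.187), and prothrombin (F2) had 30.1 and 15.1 counts in shSerpine2-1 libraries, against 22.1 and 20.9 in shRenilla libraries, with overlap. Of 16 tested coagulation and fibrinolysis genes, which share members with this list, 2 rose and 4 fell (median -0.12). Without shSerpine2-1 A, shSerpine2-1 B, shRenilla A and shRenilla B in turn the rises of the Serpine2 list numbered 0, 1, 2 and 0 and its falls 3, 1, 2 and 3; those of the coagulation list numbered 1, 1, 2 and 1 and 3, 1, 2 and 2.

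Several matrix-degrading enzymes fell. Of 38 tested extracellular and lysosomal proteases, 8 rose and 12 fell (median -0.08), against 5.09% and 5.38% of all genes. Mmp3, stromelysin-1, had 381 and 373 counts in shSerpine2-1 libraries, against 787 and 844 in shRenilla libraries (log2 fold change -1.11 ± 0.08 (SE), adjusted p = 3.29e-07). Mmp9, gelatinase B, had 175 and 157 counts in shSerpine2-1 libraries, against 335 and 329 in shRenilla libraries (adjusted p = 2.37e-05). Adamts9, a proteoglycan-cleaving protease, fell by 0.86 log2 units, and Ctsh, cathepsin H, by 0.39. Both shSerpine2-1 libraries were below both shRenilla libraries in these 4 genes, a lack of overlap that was common among all tested genes. Mmp3, Adamts9 and Ctsh were also below shRenilla in every library of the other knockdown lines. For Mmp3 this was by a narrow margin in shSerpine2-2, with 785 and 747 counts. Mmp9 was below shRenilla in shSlpi-1 and above it in shSerpine2-2 and shSlpi-2. Adamts1, a related protease, had 2145 and 2127 counts in shSerpine2-1 libraries, against 1508 and 1462 in shRenilla libraries (log2 fold change 0.52 ± 0.06 (SE), adjusted p = 5.63e-05). It was above shRenilla in every library of the other knockdown lines too. Of 21 tested protease inhibitors other than Serpine2 and Slpi, 2 rose, Serpinb5 among them, and 1 fell: Reck, a membrane inhibitor of matrix metalloproteinases, by 0.43. With 14.3% changed, beside 10.5% of all genes, this list was near the share over all genes. Of 10 tested targets, substrates and relatives of Slpi, 4 fell (median -0.17): Mmp9, Lcn2, Grn, the progranulin gene, by 0.20, and Ptgs2, cyclooxygenase-2, by 0.19. Leaving out the 4 libraries in turn, shSerpine2-1 A and B first, left 3, 3, 4 and 2 protease rises, 6, 5, 5 and 5 protease falls and 2, 2, 3 and 2 falls on the Slpi list; the Reck call ended each time, that of Grn each time, and that of Ptgs2 without any of the 4 but shRenilla A.

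Bone matrix genes and integrins that changed mostly fell. Of 12 tested bone matrix and mineralization genes, 6 fell and 1 rose (median -0.27), beside 5.38% falling and 5.09% rising among all genes. Spp1, osteopontin, a secreted integrin ligand, had 11751 and 11583 counts in shSerpine2-1 libraries, against 23343 and 25626 in shRenilla libraries (log2 fold change -1.07 ± 0.05 (SE), adjusted p = 1.18e-09). Mgp, matrix Gla protein, which inhibits calcification, had 36.8 and 47.6 counts in shSerpine2-1 libraries, against 114 and 118 in shRenilla libraries (log2 fold change -1.45 ± 0.26 (SE), adjusted p = 0.00206). Dmp1, an acidic bone matrix protein of the same gene family as Spp1, had 42.3 and 44.1 counts in shSerpine2-1 libraries, against 113 and 127 in shRenilla libraries (log2 fold change -1.45 ± 0.20 (SE), adjusted p = 0.000236). The groups did not overlap in Spp1, nor in Mgp and Dmp1, for which this was a condition of the choice among the largest falls. Spp1 and Dmp1 were also below shRenilla in every library of the other knockdown lines. Mgp was below it in the shSlpi lines and above it in shSerpine2-2. Bmp7, a bone morphogenetic protein, fell by 0.55 and Ank, a pyrophosphate exporter, by 0.44, while the phosphate importer Slc20a1 rose by 0.30. Of 18 tested integrin chains, 5 fell and 1 rose (median -0.10). Itga8 fell by 0.83, Itga1 by 0.74, Itgb3 by 0.60, Itga2 by 0.33 and Itgb4 by 0.22, and Itgb6, the beta chain of an activator of latent TGF-beta, rose by 0.53. Of 27 tested basement membrane and matrix genes, 6 rose and 3 fell (median 0.06). The falls were Col6a2 at -1.56, Col6a1 at -0.46 and Col4a5 at -0.29 log2 units. In the same 4 leave-outs the mineralization falls numbered 5, 5, 6 and 5, the integrin falls 4, 4, 4 and 4, the matrix rises 0, 1, 2 and 1 and the matrix falls 2, 1, 2 and 1.

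Most epithelial genes that changed rose, and the mesenchymal genes that changed fell. Of 40 tested genes of epithelial identity and junctions, 11 rose and 2 fell (median 0.15), beside 5.09% rising and 5.38% falling among all genes. Cdh1, E-cadherin, had 11907 and 12034 counts in shSerpine2-1 libraries, against 9519.8 and 9155 in shRenilla libraries (log2 fold change 0.36 ± 0.04 (SE), adjusted p = 9.18e-05). Dsp, desmoplakin of desmosomes, rose by 0.47 log2 units, Cgn, cingulin of tight junctions, by 0.50 and Esrp1, an epithelial splicing regulator, by 0.51. The 2 falls were Klf5 at -0.23 and Itgb4 at -0.22. Of 8 tested keratins, Krt14, Krt7 and Krt80 rose and none fell, in each of the alternatives run. Krt80 had 299 and 294 counts in shSerpine2-1 libraries, against 199 and 179.6 in shRenilla libraries (log2 fold change 0.64 ± 0.10 (SE), adjusted p = 0.000635). The main luminal keratins Krt8 (log2 fold change 0.06, adjusted p = 0.514), Krt18 (-0.06, adjusted p = 0.536) and Krt19 (-0.02, adjusted p = 0.887) did not pass. Of 18 tested mesenchymal genes, 0 rose and 4 fell (median -0.07): Spp1, Pdgfra by 0.50, and the transcription factors Foxc2 by 0.46 and Tcf4 by 0.26. Cdh1 was also above shRenilla, and Spp1 and Pdgfra below it, in every library of the other knockdown lines. Vim, vimentin, had 70151 and 71989 counts in shSerpine2-1 libraries, against 69989 and 67096 in shRenilla libraries (0.05, adjusted p = 0.561). Without shSerpine2-1 A, shSerpine2-1 B, shRenilla A and shRenilla B in turn the epithelial rises numbered 7, 5, 8 and 6, the epithelial falls 0, 0, 0 and 0 and the mesenchymal falls 3, 2, 3 and 4.

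Most genes of growth factor signalling through ERK that changed fell. Of 42 tested immediate early and ERK target genes, 13 fell and 2 rose (median -0.17), beside 5.38% falling and 5.09% rising among all genes. Tgfa, an EGF receptor ligand, had 2376 and 2397 counts in shSerpine2-1 libraries, against 3741 and 3676 in shRenilla libraries (log2 fold change -0.64 ± 0.05 (SE), adjusted p = 5.25e-07). Dusp6, a phosphatase that switches ERK off, had 1119 and 1076 counts in shSerpine2-1 libraries, against 1720.4 and 1629 in shRenilla libraries (log2 fold change -0.61 ± 0.07 (SE), adjusted p = 4.14e-05). Areg, the EGF receptor ligand amphiregulin, fell by 0.58 and Errfi1, an inhibitor of that receptor, by 0.36. The libraries of the groups did not overlap in these 4 genes, which was common among all tested genes. Spry1, a feedback inhibitor of the same pathway, went the other way, with 472 and 455 counts in shSerpine2-1 libraries, against 291 and 333 in shRenilla libraries (log2 fold change 0.57 ± 0.09 (SE), adjusted p = 0.000759), as did Ets1 at 0.29. Of 32 tested YAP and TGF-beta targets, 10 rose and 5 fell (median 0.04). The matricellular YAP targets Cyr61 and Ctgf rose by 0.46 and 0.50, and Tgfb3 fell by 0.43. Of 32 tested secreted angiogenic factors and receptors, 6 rose and 4 fell (median 0.03). Thbs1, thrombospondin-1, an inhibitor of angiogenesis and activator of TGF-beta, had 7169 and 6954 counts in shSerpine2-1 libraries, against 5082 and 4793 in shRenilla libraries (log2 fold change 0.52 ± 0.06 (SE), adjusted p = 3.2e-05). Thbs1 was also above shRenilla in every library of the other knockdown lines. Vegfa, the main endothelial growth factor, had 638 and 619 counts in shSerpine2-1 libraries, against 827 and 782 in shRenilla libraries (log2 fold change -0.36 ± 0.07 (SE), adjusted p = 0.00285), and Angptl2 fell by 0.39. In the 4 leave-outs the ERK falls numbered 5, 7, 8 and 6, the YAP and TGF-beta rises 4, 6, 6 and 5, its falls 4, 2, 2 and 2, the angiogenic rises 4, 4, 5 and 4 and its falls 3, 2, 3 and 3.

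Inflammatory and interferon genes that changed fell, with 1 exception. Of 37 tested NF-kB regulators and cytokines, 10 fell and 1, Vcam1, rose by 0.18 (list median -0.06). The shares over all genes were 5.38% falling and 5.09% rising. Lcn2, lipocalin-2, an iron-siderophore carrier of inflamed epithelium, had 8.91 and 4.64 counts in shSerpine2-1 libraries, against 56.9 and 54.0 in shRenilla libraries (log2 fold change -2.92 ± 0.46 (SE), adjusted p = 0.000777), at a low level in both groups. C3, the central complement protein, had 149 and 115 counts in shSerpine2-1 libraries, against 253 and 249 in shRenilla libraries (log2 fold change -0.93 ± 0.13 (SE), adjusted p = 0.00022). Ptges, a prostaglandin E synthase, had 242 and 293 counts in shSerpine2-1 libraries, against 489 and 491 in shRenilla libraries (log2 fold change -0.88 ± 0.12 (SE), adjusted p = 0.000231). Csf3, the granulocyte growth factor, had 176 and 186 counts in shSerpine2-1 libraries, against 269 and 301 in shRenilla libraries (log2 fold change -0.65 ± 0.12 (SE), adjusted p = 0.00221). Tnfaip2 fell by 0.41. The chemokines Cxcl1 (-0.13, adjusted p = 0.554) and Cxcl5 (-0.01, adjusted p = 0.969) did not pass. Of 44 tested interferon-stimulated and antigen presentation genes, 0 rose and 7 fell (median -0.17). Oasl2, an antiviral protein of the oligoadenylate synthetase family, had 242 and 229 counts in shSerpine2-1 libraries, against 392 and 381 in shRenilla libraries (log2 fold change -0.71 ± 0.10 (SE), adjusted p = 0.000237), and Ifi44 fell by 1.57 at a low count. Leaving out the 4 libraries in turn left 6, 7, 8 and 5 cytokine falls, 0, 0, 0 and 0 cytokine rises and 2, 3, 4 and 2 interferon falls.

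Amino acid supply genes were the list with the largest share of rises. Of 48 tested Atf4 and amino acid stress genes, 26 rose and 0 fell (median 0.23), against 5.09% rising among all genes. Slc7a11, the cystine importer, had 854 and 921 counts in shSerpine2-1 libraries, against 577 and 596 in shRenilla libraries (log2 fold change 0.60 ± 0.07 (SE), adjusted p = 5.47e-05). Slc7a5, a transporter of large neutral amino acids, had 4658 and 4501 counts in shSerpine2-1 libraries, against 3262 and 3167 in shRenilla libraries (log2 fold change 0.51 ± 0.06 (SE), adjusted p = 3.2e-05). Asns, asparagine synthetase, had 2061 and 2176 counts in shSerpine2-1 libraries, against 1452 and 1611 in shRenilla libraries (log2 fold change 0.47 ± 0.06 (SE), adjusted p = 0.000137). Aars, the alanyl-tRNA synthetase, had 2767 and 2877 counts in shSerpine2-1 libraries, against 2143 and 1951 in shRenilla libraries (log2 fold change 0.46 ± 0.06 (SE), adjusted p = 0.00014). Both shSerpine2-1 libraries exceeded both shRenilla libraries in these 4 genes, a lack of overlap that was common among all tested genes. Mthfd2, a mitochondrial folate enzyme, rose by 0.46. The RNAs of Atf4 itself (0.04, adjusted p = 0.751), the transcription factor, and of Ddit3 (0.06, adjusted p = 0.899) and Trib3 (-0.05, adjusted p = 0.922), its targets in acute stress, did not pass. The rises numbered 14, 10, 15 and 13 without shSerpine2-1 A, shSerpine2-1 B, shRenilla A and shRenilla B in turn, and none fell.

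The promoters of these genes were searched for the element that Atf4 binds. The search looked for TGATGNAAN, with N for any base, on both strands of the 250 bases upstream of the gene start, in RefSeq promoters of GRCm38.p6. It was found in 7 of the 21 rising list genes with a promoter in the table (33.3%), in 3 of the 16 tested list genes that did not rise (18.8%), in 209 of 9062 tested genes (2.31%) and in 1052 of 27025 genes in all (3.89%). Matches are given below for 5 rising genes, on each gene's own strand, 5′ to 3′, with the match in capitals; the matches in Aars, Chac1, Tars and the first of Slc7a11 read on the opposite strand. Slc7a11 holds 2 matches, on opposite strands, that do not overlap. The list was made of Atf4 and amino acid stress genes, so a share above that of all genes could be had without any change here. Whether Atf4 has a part in the rises was not tested. A match describes letters, not binding.
Aars (chr8:111033703-111033763, plus strand): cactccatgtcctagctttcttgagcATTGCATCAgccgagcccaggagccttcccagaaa
Asns (chr6:7693210-7693258, minus strand): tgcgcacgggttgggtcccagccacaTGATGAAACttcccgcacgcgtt
Chac1 (chr2:119351022-119351082, plus strand): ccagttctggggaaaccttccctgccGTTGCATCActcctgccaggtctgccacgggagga
Slc7a11 (chr3:50443627-50443687, minus strand): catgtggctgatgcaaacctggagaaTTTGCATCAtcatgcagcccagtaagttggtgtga
Slc7a11 (chr3:50443645-50443705, minus strand): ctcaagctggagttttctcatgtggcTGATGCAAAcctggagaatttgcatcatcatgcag
Tars (chr15:11399659-11399700, minus strand): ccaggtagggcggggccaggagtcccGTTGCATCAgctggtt
Beside these sequences, Chac1, a glutathione-degrading enzyme, had 437 and 447 counts in shSerpine2-1 libraries, against 277 and 337 in shRenilla libraries (log2 fold change 0.53 ± 0.10 (SE), adjusted p = 0.00255), and Tars, the threonyl-tRNA synthetase, rose by 0.31.

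The lipid synthesis genes that changed rose, and the hypoxia genes that changed fell with 1 exception. Among 37 tested enzymes and regulators of sterol and fatty acid production, 17 rose and 0 fell (median 0.19). The shares over all genes were 5.09% rising and 5.38% falling. Hmgcs1, the enzyme before the rate-limiting step of cholesterol synthesis, had 2633 and 2811 counts in shSerpine2-1 libraries, against 2097 and 2161 in shRenilla libraries (log2 fold change 0.35 ± 0.05 (SE), adjusted p = 0.000407). Fasn, fatty acid synthase, had 8059 and 8091 counts in shSerpine2-1 libraries, against 6778 and 6452 in shRenilla libraries (log2 fold change 0.29 ± 0.05 (SE), adjusted p = 0.000698). Elovl6, a fatty acid elongase, rose by 0.26, Lss, lanosterol synthase, by 0.30 and Idi1, an isoprenoid isomerase, by 0.33. Single rises were thus small. The groups did not overlap in Hmgcs1 and Fasn, but lack of overlap was common among all tested genes and adds no support. Of 39 tested glycolysis and hypoxia genes, 11 fell and 1, the glucose transporter Slc2a3, rose (median -0.07). Car9, a carbonic anhydrase induced by hypoxia, had 1896 and 1707 counts in shSerpine2-1 libraries, against 2921 and 2842 in shRenilla libraries (log2 fold change -0.68 ± 0.06 (SE), adjusted p = 2.53e-06). Bnip3, a mitophagy receptor, had 662 and 698 counts in shSerpine2-1 libraries, against 943 and 951 in shRenilla libraries (log2 fold change -0.48 ± 0.07 (SE), adjusted p = 0.000208). Ndrg1 fell by 0.42, Aldoc, an aldolase, by 0.62 and Ero1l, an oxidase of the endoplasmic reticulum, by 0.37. Hif1a RNA, which encodes the oxygen-regulated subunit of the hypoxia factor, did not pass (log2 fold change -0.10, adjusted p = 0.239). In the 4 leave-outs, shSerpine2-1 A and B first, the lipid rises numbered 7, 6, 9 and 6 and the hypoxia falls 7, 7, 7 and 7.

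DNA replication and mitosis genes that changed rose, by small amounts. Of 58 tested, 14 rose and 0 fell (median 0.12), beside 5.09% rising and 5.38% falling among all genes. Ung, a uracil-DNA glycosylase, had 701 and 669.9 counts in shSerpine2-1 libraries, against 477 and 533 in shRenilla libraries (log2 fold change 0.44 ± 0.07 (SE), adjusted p = 0.000865). Mcm3, of the replicative helicase, rose by 0.24, Pole, a leading-strand polymerase, by 0.24, Kif20a, a mitotic kinesin, by 0.28 and Bub1b, of the spindle checkpoint, by 0.28. Replication-dependent histones had a median of -0.30 over 56 tested genes, of which 0 had a positive difference, and 7 fell. The median over all tested genes was -0.001. With 12.5% changed, beside 10.5% of all genes, the histone list was near the share over all genes. Against shSerpine2-2 and shSlpi-1 its medians were 0.07 and 0.12, and 0 of its genes passed. Hist1h1c, a linker histone, had 1025 and 1046 counts in shSerpine2-1 libraries, against 1280.0 and 1321 in shRenilla libraries (log2 fold change -0.33 ± 0.08 (SE), adjusted p = 0.0203). The cell cycle rises numbered 2, 2, 10 and 1 in the 4 leave-outs and the histone falls 0, 0, 1 and 0; histone falls also numbered 4 under quantile normalization and 3 with voom. Histone genes are near-identical copies among which counting may split reads, so single histone values are uncertain. Of 81 tested cytosolic ribosomal protein genes, 3 rose and 0 fell (median 0.01).

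**Figure D4:**
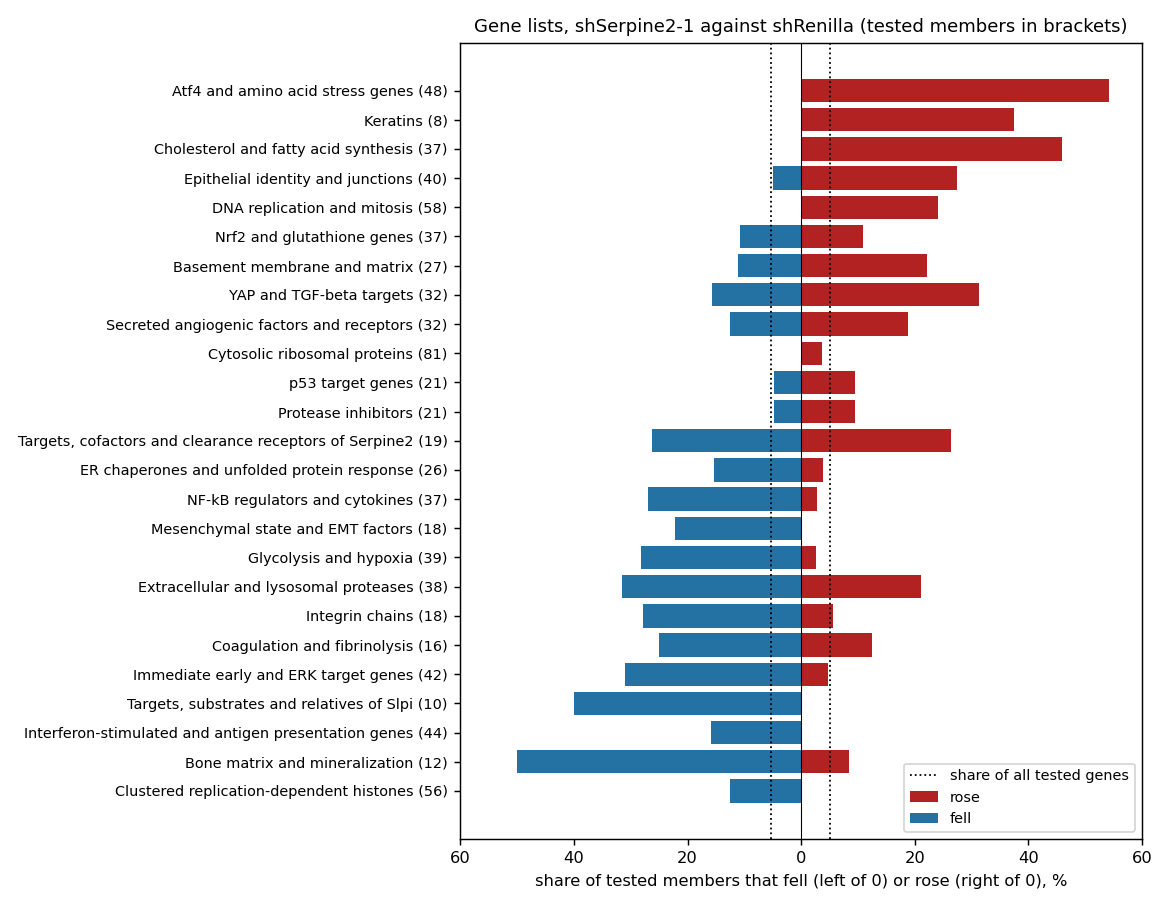
Share of the tested members of each gene list that fell (blue, left of 0) or rose (red, right of 0) in shSerpine2-1 against shRenilla; the number tested is in brackets, and dotted lines mark the shares over all genes, 5.38% and 5.09%. Lists are ordered by median log2 fold change, from Atf4 and amino acid stress genes at the top to histones at the bottom.

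The line with the other Serpine2 hairpin gave a direct test of where hairpin 1 cells stood apart from cells with the same target. In shSerpine2-1 against shSerpine2-2, 1805 genes differed (14.7%), with 859 higher (6.98%) and 946 lower (7.69%) in shSerpine2-1. The split turned under other settings: 884 higher and 766 lower after quantile normalization, and 625 higher and 508 lower with no filter. Leaving out shSerpine2-1 A, shSerpine2-1 B, shSerpine2-2 A and shSerpine2-2 B in turn gave 498, 635, 696 and 404. Cck had 91.3 and 89.4 counts in shSerpine2-1 libraries, against 418 and 493 in shSerpine2-2 libraries (log2 fold change -2.32 ± 0.16 (SE), adjusted p = 2.05e-07), with the shRenilla libraries between at 253 and 302. Mmp9 had 175 and 157 counts in shSerpine2-1 libraries, against 414 and 408 in shSerpine2-2 libraries (log2 fold change -1.31 ± 0.11 (SE), adjusted p = 1.04e-06). Ccl2, a monocyte chemokine, had 365 and 333 counts in shSerpine2-1 libraries, against 862 and 917 in shSerpine2-2 libraries (log2 fold change -1.35 ± 0.14 (SE), adjusted p = 1.56e-05), and its difference from shRenilla did not pass (-0.27, adjusted p = 0.234). The log2 difference was -1.66 for Mgp, -1.40 for Rhox5 and -1.28 for Ace. Among genes that were higher, Muc6, a gel-forming mucin, had 143 and 182 counts in shSerpine2-1 libraries, against 69.4 and 70.5 in shSerpine2-2 libraries (log2 fold change 1.19 ± 0.14 (SE), adjusted p = 6.15e-05). Phxr4 had 264 and 279.8 counts in shSerpine2-1 libraries, against 133 and 116 in shSerpine2-2 libraries, with 279 and 263 in shRenilla libraries. Nim1 differed by 1.24 log2 units, Dnah11 by 1.13, Tmprss11f by 1.08, Prg4 by 1.04, Mettl21c by 1.03 and B3galt2 by 0.99. The calls of Ace, Prg4, Tmprss11f and Rhox5 ended in at least 1 of these leave-outs, with adjusted p up to 0.182.

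**Figure D5:**
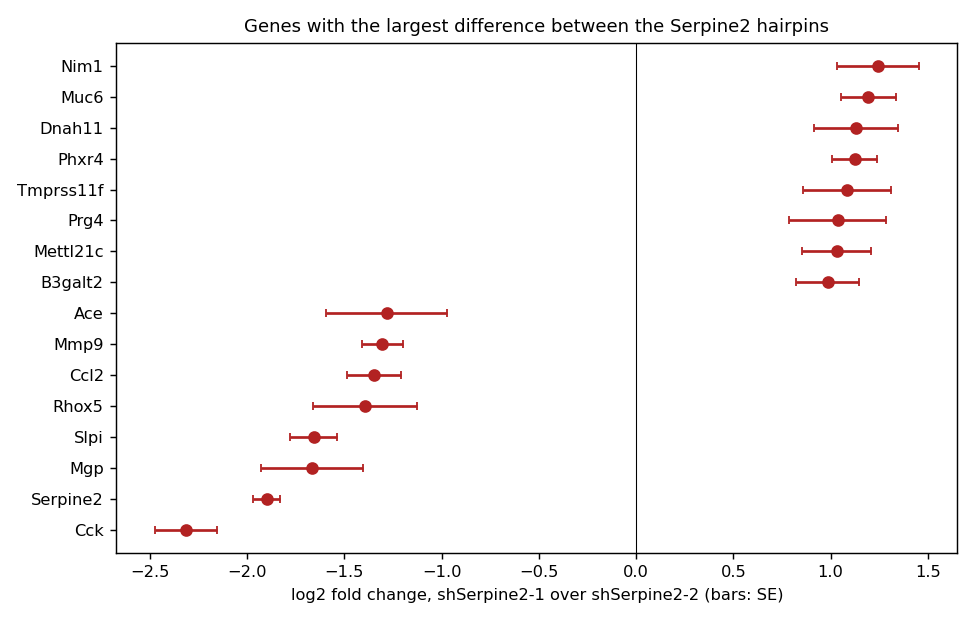
Log2 fold change of shSerpine2-1 over shSerpine2-2 (points, with standard errors as bars) for the 16 named genes, 8 higher and 8 lower in shSerpine2-1. Cck is lowest at -2.32 and Nim1 highest at 1.24.

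By list, cytokine, Slpi and stress genes that differed between the Serpine2 hairpins were mostly lower with hairpin 1 in the main fit. The list counts of this contrast were not repeated under other scalings or leave-outs. Of 37 NF-kB regulators and cytokines, 16 were lower and 1 was higher in shSerpine2-1 than in shSerpine2-2 (median -0.32, against -0.01 over all genes). Among all genes, 7.69% were lower and 6.98% higher. Of 10 targets and relatives of Slpi, 6 were lower. Of 26 chaperones of the endoplasmic reticulum, 10 were lower and 1 was higher (median -0.20), Canx, calnexin, among them with 16975 and 17449 counts in shSerpine2-1 libraries, against 24522 and 23604 in shSerpine2-2 libraries. Of 48 Atf4 and amino acid genes, 15 were lower and 2 were higher (median -0.15); Slc7a11 had 854 and 921 counts in shSerpine2-1 libraries, against 1165 and 1087 in shSerpine2-2 libraries. Of 81 ribosomal protein genes, 13 were lower (median -0.21). Of 40 epithelial genes, 2 were higher and 3 lower; Krt7 had 2978 and 3072 counts in shSerpine2-1 libraries, against 3092 and 3137 in shSerpine2-2 libraries (-0.04, adjusted p = 0.657).

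Against shSlpi-1, a line in which Slpi was the target, 436 genes differed (3.55%), with 251 higher (2.04%) and 185 lower (1.5%) in shSerpine2-1. The split depended on the scaling: 141 higher and 239 lower after scaling to the library total, and 91 and 164 after quantile normalization. The count was 10 without shSerpine2-1 A, 26 without shSerpine2-1 B, 138 without shSlpi-1 A and 18 without shSlpi-1 B. For several genes with the largest changes against shRenilla, the shSerpine2-1 and shSlpi-1 libraries were at like levels. Mmp3 had 381 and 373 counts in shSerpine2-1 libraries, against 357 and 393 in shSlpi-1 libraries (0.01 ± 0.08 log2 units, SE). Spp1 had 11751 and 11583 counts in shSerpine2-1 libraries, against 11468 and 11261 in shSlpi-1 libraries (0.04 ± 0.05). Dll4 had 85.8 and 104 counts in shSerpine2-1 libraries, against 91.7 and 101 in shSlpi-1 libraries (-0.02 ± 0.15). The libraries of the groups overlapped in Mmp3 and Dll4, and in Spp1 both shSerpine2-1 libraries were slightly above both shSlpi-1 libraries. Other genes differed. In shSerpine2-1, 6 of 48 Atf4 and amino acid genes were higher and 0 lower, 8 of 81 ribosomal protein genes were lower and 1 higher, and 5 of 44 interferon genes were lower and 0 higher. Of 6 noncoding and RNA quality genes, 4 were lower and 0 higher. Of 39 glycolysis and hypoxia genes, 7 were lower and 0 higher: Car9 had 1896 and 1707 counts in shSerpine2-1 libraries, against 2274 and 2318 in shSlpi-1 libraries (log2 fold change -0.35 ± 0.06 (SE), adjusted p = 0.00656). A difference that misses the threshold does not show equal levels. Against shSlpi-2, whose libraries differed more from each other than those of any other group, 4177 genes differed (34%).

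A gene was counted as particular to shSerpine2-1 where it differed in the same direction from each of the other 4 groups. Of all tested genes, 14 were higher (0.114%) and 14 lower (0.114%). Serpine2, the target, was the only gene that met this condition whichever library was left out. Its low level in this line was known when the comparison was chosen, so this is a description. Csf3 had 176 and 186 counts in shSerpine2-1 libraries, against 280.1 and 306 in shSerpine2-2, 249 and 245 in shSlpi-1, 257 and 328 in shSlpi-2 and 269 and 301 in shRenilla libraries. Mir17hg, the host transcript of a growth-promoting microRNA cluster, had 610.4 and 628 counts in shSerpine2-1 libraries, against 788 and 837 in shSerpine2-2, 1001 and 937 in shSlpi-1, 928 and 829 in shSlpi-2 and 874 and 915 in shRenilla libraries. In both genes every shSerpine2-1 library was below all 8 others. Csf3 was close to the threshold against shSlpi-1 (log2 fold change -0.45 ± 0.12 (SE), limma, adjusted p = 0.049). Snhg8, a small nucleolar RNA host gene, and the small nucleolar RNAs Snord104 and Snora31 were lower by 0.43, 0.97 and 0.52 log2 units against shRenilla. Among those higher, Diap3, an actin-nucleating formin, had 2523 and 2547 counts in shSerpine2-1 libraries, against 2118 and 2014 in shRenilla libraries, and Brca2, a DNA repair gene, had 3744 and 3539, against 3276 and 3117 in shRenilla libraries. Klhl5, Zfp609, Wwc1 and Got1 were the others named, at 0.26, 0.30, 0.41 and 0.18 log2 units against shRenilla. The condition failed in most leave-outs of 1 library for Csf3, Snord104, Diap3, Brca2, Klhl5, Wwc1 and Got1. It held in most for Mir17hg, Snhg8 and Zfp609, and for Snora31 it failed as often as it held. With 1 library left out, the 28 genes became 2 (without shSerpine2-1 A) to 10, and 171 and 150 without shSlpi-2 A and B, a check chosen after seeing the data.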

How the data were processed

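RNA of 10 libraries of clone 4T1-T, 5 groups of 2 taken from the sample titles, was amplified (NuGEN Ovation V2, 100 ng input), fragmented to 200 bp and read at 76 bp, per the labels' protocols. The authors deposited 1 table with log2 values of 23479 gene entries. The submitters' processing notes name Bowtie2, HTSeq, DESeq and mm10 for the authors' processing, and versions, settings and use of strand are not given. The values start at a floor of 6.733366499 and fit the variance-stabilizing transformation of the authors' tool, which no label states. It was undone, giving normalized counts in whole steps per library, from which whole reads were recovered (100% within 0.01 reads). The table's 27 date-like names stayed in the tests unnamed. A count of 0 allows up to 3 reads (2.30 to 3.48 normalized counts); this covers counting error only, as amplified reads are not independent molecules. Chi-square per degree of freedom between A and B was 1.55 in shSerpine2-1, 2.51 in shRenilla and 10.9 in shSlpi-2, so that A and B of each of these groups differed beyond counting noise.

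Tests used limma 3.58.1 in R 4.3.3 on log2(normalized count + 1), which understates changes of weak genes, for 12299 genes whose mean count was 10 or more. One fit of 5 group means over the 10 libraries (eBayes with a mean-variance trend) shared its spread, which leans on the variable shSlpi-2 libraries. It was tested on simulated data first. P-values are two-sided, adjusted by the Benjamini-Hochberg method. The members and gene lists were chosen with earlier results of these data known. The mitochondrially encoded list of 15 genes had 0 in the table. Named genes were Serpine2 and Slpi; the 12 largest rises and falls against shRenilla with a mean of at least 50 and no overlap; the 8 largest each way against shSerpine2-2; the 6 each way with the largest smallest difference from all 4 groups; and up to 5 changed members per list. Genes named beside these for contrast (such as Krt8, Vim, F2r, Atf4 and Chac1) are list members chosen after their values were seen. Gene positions came from the GENCODE M21 annotation (GRCm38). Alternatives were another pseudocount, no filter, quantile and library-total scaling, the deposited log2 values, voom on recovered reads, fewer libraries, a replicate block and leaving out each library. Sets of genes were counted and not tested as sets. Some changed list members are not reported here by name.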

Additional observations from a re-analysis of the deposited data

Results flagged for a closer look

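The 24 genes with the largest rises and falls against shRenilla were compared between the shSerpine2-1 and shSerpine2-2 lines. By the direct test of that difference, 14 differed (limma, adjusted p under 0.05), beside 14.7% of all tested genes. Serpine2 and Slpi, whose low values in shSerpine2-1 were known beforehand, are among the 14. Since the genes were picked for their shSerpine2-1 values, this count is a description. In log2 units of shSerpine2-1 over shSerpine2-2, the differences below 0 were -2.32 for Cck, -1.90 for Serpine2, -1.66 for Slpi, -1.66 for Mgp, -1.28 for Ace, -1.16 for Dll4, -0.91 for Enpp2, -0.74 for Tslp and -0.57 for Man1c1. Those above 0 were 1.24 for Nim1, 0.69 for Snord16a, 0.56 for Scn3a, 0.41 for Serpinb5 and 0.18 for Fgfbp1. Dll4, which had 85.8 and 104 counts in shSerpine2-1 libraries, stood at 229 and 197 in shSerpine2-2 and 247 and 196 in shRenilla libraries. Tslp, with 618 and 609.5 counts in shSerpine2-1 libraries, stood at 1039 and 1011 in shSerpine2-2 and 1532 and 1582 in shRenilla libraries, so that both Serpine2 lines were below shRenilla in each library. Serpine2 itself was lower with hairpin 1, and whether the amount of Serpine2 left has a part in the other differences was not tested.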

How the results depend on the processing

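The Serpine2 and Slpi calls held under every alternative run, with log2 fold changes of -4.63 to -3.46 and -1.93 to -1.37, the smaller sizes coming from the deposited values with their transformation left in place. The count of 1288 changed genes was 703 with no filter, 2592 in a fit of only the 4 libraries compared and 2445 without both shSlpi-2 libraries; leaving out 1 library gave 304 to 598. The count of 1805 against shSerpine2-2 was 1133, 3599 and 3185 under the same settings, and 404 to 696 with 1 library left out. The count of 436 against shSlpi-1 was 20, 1576 and 1784, with 255 after quantile normalization, and 10 to 138 with 1 library left out. The 28 genes that differed from each of the other 4 groups became 3 with no filter, 18 after quantile normalization and 2 to 171 with 1 library left out. The other alternatives kept these counts within 1.5 times. Leaving out a library leaves an arm with 1 library, which is assumed to vary like the other groups. Library letters did not pair the samples (correlations of deviations -0.07 to 0.07), and a fit with the letter as a replicate block gave 1221, 1816, 422 and 25 genes. Of 135 results on single named genes, 79 kept their call in every alternative run, 56 lost it in at least 1 and 0 reversed. With 2 libraries per group and no statement that they are separate cultures, and with genes under a mean of 10 left untested, small changes of weak genes were not detectable at this depth.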

Other observations

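Genes of lists outside the groups described above moved in both directions. Among all genes, 5.09% rose and 5.38% fell against shRenilla, 10.5% in all, and the p53 targets below, at 14.3% changed, were near that share. Of 37 tested Nrf2 and glutathione genes, 4 rose and 4 fell in shSerpine2-1 against shRenilla (median 0.07): the rises were Slc7a11, Txnrd1, Me1 and the exporter Abcc4, and the falls were Abcc3, the microsomal glutathione transferase Mgst1, catalase (Cat) and Nfe2l2, the gene of Nrf2 itself, with 4651 and 4628 counts in shSerpine2-1 libraries, against 5266 and 5677 in shRenilla libraries. The 4 leave-outs, shSerpine2-1 A and B and then shRenilla A and B, left 1, 1, 2 and 1 rises and 1, 1, 4 and 1 falls. Of 26 tested chaperones and unfolded protein response genes, Hyou1 rose by 0.20, and Canx, Xbp1, Ero1l and Dnajb9 fell by 0.21, 0.27, 0.37 and 0.41 (median -0.02); 0 rises and 1 fall were left in each leave-out. Of 21 tested p53 targets, Plk2 rose by 0.44 and Btg2 by 1.06, and Cdkn1a, the cell cycle inhibitor p21, fell by 0.46, with 334 and 418 counts in shSerpine2-1 libraries, against 477 and 551 in shRenilla libraries; the call of Cdkn1a ended without shSerpine2-1 A and without shRenilla B, and that of Btg2 without all but shSerpine2-1 A.

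Of 6 tested noncoding RNAs and related RNA quality genes, 2 fell and 0 rose (median -0.29), beside 5.38% falling and 5.09% rising among all genes. Malat1, a nuclear noncoding RNA, had 221485 and 218811 counts in shSerpine2-1 libraries, against 265745 and 283104 in shRenilla libraries (log2 fold change -0.32 ± 0.06 (SE), adjusted p = 0.00211), and its call ended under quantile normalization, without shSerpine2-1 B and without shRenilla B. Rn45s, the ribosomal RNA precursor, took 0.928% and 0.881% of reads in shSerpine2-1 libraries, against 1.00% and 1.21% in shRenilla libraries (log2 fold change -0.27, adjusted p = 0.0463). Its call ended with no filter, under quantile normalization, with the replicate block and without shSerpine2-1 A, shSerpine2-1 B or shRenilla B (adjusted p = 0.487 without shRenilla B). Its share in the other knockdown lines was 1.83% and 1.62% in shSerpine2-2, 1.96% and 1.89% in shSlpi-1 and 6.88% and 6.91% in shSlpi-2 libraries, so that the shSerpine2-1 libraries held the lowest shares of the series.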
